A study of Homo sapiens with 18 samples.

Results

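The irradiated mixed culture of MCF10A and HCT116 cells was compared directly with HCT116 cells irradiated alone. The comparison holds the 3 libraries titled as a mixture given 10 Gy and the 3 libraries titled as HCT116 given 10 Gy. They are 6 of the 18 libraries of the series, chosen by title and not by any measured value. All 40916 gene symbols of the count tables entered, and 17137 of them passed the filter on low counts and were tested. Gene expression was measured by sequencing poly(A)-selected RNA, and the design text states 3 biological replicates in each of 6 groups, which were MCF10A, HCT116 and their mixture, each without irradiation and after 10 Gy. MCF10A is an established line of non-tumorigenic human mammary epithelium. Here it carried a histone H2B fused to GFP and was grown in F12:DMEM with horse serum, EGF, hydrocortisone, cholera toxin and insulin. HCT116 is an established human colorectal carcinoma line, here unlabelled, described as p53-null and grown in McCoy's 5A with 10% fetal bovine serum. The mixture is described as 50-50. The medium it was grown in is not stated, so that the presence of the other line and the medium cannot be told apart in any result below. The titles give day 2, whereas the design text gives harvest at 72 hours after irradiation. The non-irradiated mixture and HCT116, and irradiated MCF10A, serve as references. The p-values measure the spread between libraries labelled as biological replicates; nothing further is said on how those cultures were separated.

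Ionising radiation breaks DNA, and cells with working p53 answer by switching on genes such as CDKN1A, a brake on the cell cycle, while genes of mitosis fall as division stops. DNA released into the cytoplasm after irradiation can also switch on interferon-stimulated genes, which encode antiviral proteins. Basal mammary cells such as MCF10A make matrix proteins, laminins and stratified-type keratins, whereas colorectal lines such as HCT116 are marked by simple keratins, so that the 2 lines can be told apart by their transcripts in a mixture.

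Transcripts of MCF10A made up little of the irradiated mixture. Levels are given as CPM, a gene's share of the library's counts scaled to 1e+06. On that scale, 143 genes were chosen on the non-irradiated monocultures alone as MCF10A-specific, with at least 20 CPM in MCF10A and under 1 CPM in every HCT116 library. Each gene's level in the irradiated mixture was divided by its mean in irradiated MCF10A. The median over the genes was 1.29%, 1.16% and 1.37% in the 3 libraries, or 1.27% ± 0.107 (SD, n = 3), with quartiles over genes of 0.604% and 2.47%. In irradiated HCT116 the same measure, which is its background, was 0.136% ± 0.0388. The 153 HCT116-specific genes chosen the same way stood at 105.8%, 102.2% and 103.5% of their level in irradiated HCT116. The RNA of the irradiated mixture was thus nearly all of HCT116 type, and fewer MCF10A cells and less RNA per MCF10A cell cannot be told apart in bulk RNA. The libraries held 25737818 to 40839835 counts in irradiated HCT116, 35282019 to 37412984 in the mixture and 27216519 to 34011107 in irradiated MCF10A. The first principal component of the 6 libraries (58.3% of the variance) separated the groups. In the line described as p53-null, the p53 target CDKN1A stood at 318 ± 39.3 CPM in non-irradiated and 1593 ± 90.2 CPM in irradiated HCT116.

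The irradiated mixture differed from irradiated HCT116 in 1467 of the 17137 genes tested (8.56%) at an adjusted p under 0.05 in edgeR's quasi-likelihood test. Of these, 871 were higher in the mixture (5.08% of genes tested) and 596 lower (3.48%), so that 59.4% of the calls were higher, and 80.5% when all 18 libraries entered the fit (1077 higher, 261 lower). Log2 fold changes below are given ± SE and levels ± SD over 3 libraries. Most differences were small: the median size of the called differences was 0.364 on the log2 scale and 68.7% lay under 0.5, whereas the median log2 fold change of all genes was 0.0032. At least 2-fold differences were called for 164 genes higher (0.957%) and 44 genes lower (0.257%). The counts depended on single mixed libraries, with 567 higher and 299 lower without mixed replicate 2 and 586 higher and 328 lower without mixed replicate 3. Without irradiation, the same comparison of mixture and HCT116 called 335 of 16455 genes (2.04%), 146 higher (0.887%) and 189 lower (1.15%). Those counts were 68 and 77 without mixed non-irradiated replicate 1, 77 and 101 without HCT116 non-irradiated replicate 2, and 101 and 125 without HCT116 non-irradiated replicate 3. The 3 libraries of one group all lay outside the range of the other in 24.7% of all genes tested, against which statements on overlap below are to be read.

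**Figure D1:**
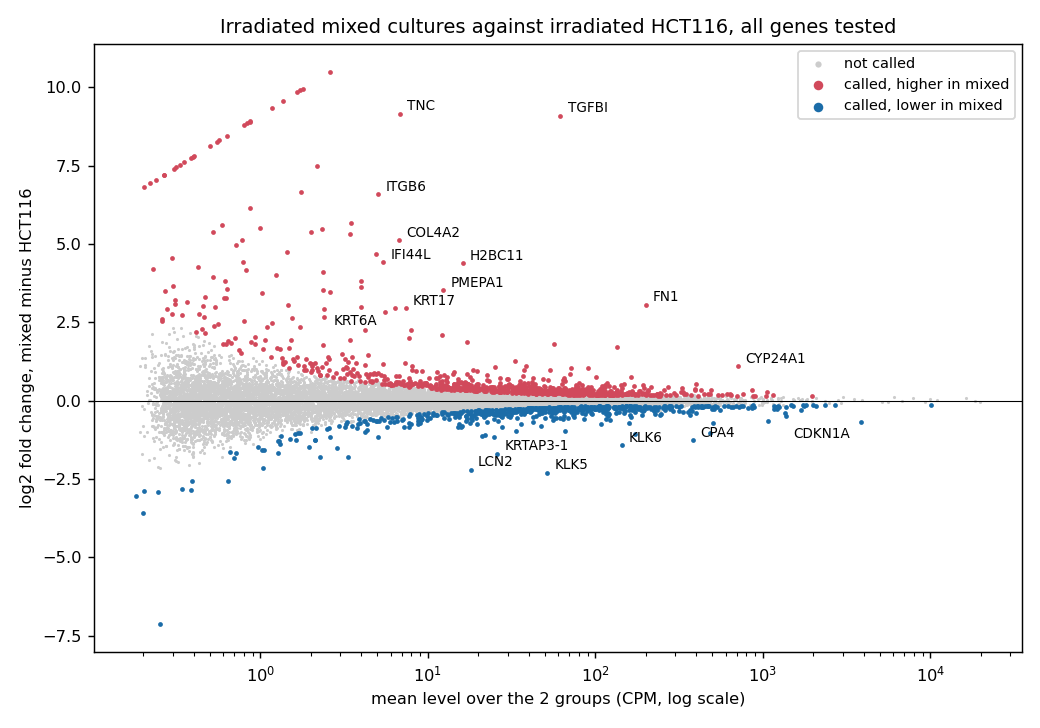
Each point is 1 of the 17137 genes tested, with its mean level over the 2 irradiated groups (CPM, log scale) against the log2 fold change of the mixture minus HCT116; red and blue points passed an adjusted p of 0.05. The red points reach log2 fold changes of 9.09 (TGFBI) and 9.17 (TNC) while the blue points of abundant genes end near -2.31 (KLK5), and the straight line of red points at the upper left holds genes without a count in any HCT116 library (26 of the 871 called higher), whose fitted fold change depends on the prior count.

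The 10 largest increases among called genes of at least 10 CPM in the higher group, chosen so that the groups did not overlap, were led by genes of the extracellular matrix and its receptors. TGFBI, a secreted matrix protein induced by TGF-beta, stood at 0.244, 0.147 and 0.311 CPM in the 3 irradiated HCT116 libraries and at 138, 122 and 111 CPM in the 3 libraries of the irradiated mixture (log2 fold change 9.09 ± 0.15, adjusted p = 1.6e-27). FN1, the gene of fibronectin, rose from 39.6, 44.2 and 43.2 to 389, 343 and 339.8 CPM (log2 fold change 3.07 ± 0.064, adjusted p = 9.8e-25). COL4A2, a chain of basement membrane collagen IV, rose from 0.396, 0.343 and 0.389 to 15.8, 12.3 and 11.4 CPM (log2 fold change 5.12 ± 0.22, adjusted p = 9.9e-17). All 3 genes were far more abundant in irradiated MCF10A, at 3299 ± 26.9, 5769 ± 362 and 187 ± 3.62 CPM (SD, n = 3). TNC, the gene of tenascin C, had 2 counts in the 3 HCT116 libraries together and 16.7, 12.5 and 11.9 CPM in the mixture, a ratio of 678 with an exact 95% counting interval of 187 to 5604 and an adjusted p of 1.8e-17. ITGB6, the beta subunit of the integrin that activates latent TGF-beta, rose from 0.122, 0.147 and 0 to 8.13, 11.9 and 10.1 CPM (log2 fold change 6.59 ± 0.32, adjusted p = 2e-15). PMEPA1, a feedback inhibitor of TGF-beta signalling, rose from 1.13, 1.98 and 2.91 to 24.5, 22.7 and 20.8 CPM (log2 fold change 3.52 ± 0.18, adjusted p = 4.2e-15). In every one of these genes the mixture lay between the monocultures, and irradiated MCF10A was the higher of them.

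The other 4 genes of that group of 10 were keratins, a histone and an interferon-stimulated gene. KRT17, a keratin of basal and activated epithelium, stood at 1.16, 1.79 and 2.14 CPM in HCT116 and 15.3, 11.3 and 12.6 CPM in the mixture (log2 fold change 2.95 ± 0.18, adjusted p = 6.9e-13), against 915 ± 29.5 CPM in irradiated MCF10A. KRT6A, which shares near-identical sequence with its family members so that its counts are uncertain, stood at 1.52, 1.37 and 1.48 and 12.1, 11.8 and 9.85 CPM (log2 fold change 2.94 ± 0.17, adjusted p = 1.8e-13), against 2282 ± 55.2 CPM in MCF10A. Both keratins were thus present in the mixture at a small share of the MCF10A level. H2BC11, a histone H2B gene, rose from 1.71, 1.54 and 1.09 to 30.3, 31.1 and 31.4 CPM (log2 fold change 4.38 ± 0.14, adjusted p = 6.1e-20), with 276 ± 20.8 CPM in irradiated MCF10A. The MCF10A cells carry an H2B fused to GFP, the labels do not name the H2B gene used, and reads of a fusion and of the native gene were not separated. IFI44L, an interferon-stimulated gene of poorly known function, rose from 0.518, 0.539 and 0.350 to 11.1, 10.2 and 9.91 CPM (log2 fold change 4.42 ± 0.21, adjusted p = 1.6e-15), and irradiated MCF10A had 18.7 ± 4.23 CPM.

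The 10 largest decreases, taken by the same limits on level and overlap, were led by secreted proteases of the kallikrein family. In all 10 genes irradiated MCF10A had a lower mean than irradiated HCT116. How often this holds over all genes tested was not counted. KLK5, a trypsin-like serine protease that activates other kallikreins, stood at 101, 76.7 and 80.8 CPM in irradiated HCT116 and at 20.4, 15 and 17.2 CPM in the mixture (log2 fold change -2.31 ± 0.098, adjusted p = 9.6e-17). KLK6 fell from 222, 202 and 203 to 87, 74.7 and 73.2 CPM (log2 fold change -1.43 ± 0.064, adjusted p = 3.2e-16). KLK7, a chymotrypsin-like member, fell from 252, 214 and 233 to 121, 104 and 113 CPM (log2 fold change -1.05 ± 0.062, adjusted p = 2.4e-13). KLK10 fell from 41.2, 30.0 and 31.2 to 16.3, 12.6 and 17.4 CPM (log2 fold change -1.16 ± 0.12, adjusted p = 2e-08). In irradiated MCF10A none of these 4 genes was above 0.0954 CPM on average. LCN2, the gene of the iron-siderophore binding protein lipocalin 2, fell from 31.9, 28.8 and 28.1 to 8.05, 6.25 and 5.19 CPM (log2 fold change -2.20 ± 0.12, adjusted p = 8.7e-14), and did not differ at the threshold from irradiated MCF10A (5.82 ± 0.775 CPM, adjusted p = 0.77). CPA4, a secreted carboxypeptidase, fell from 619.6, 494 and 498 to 249, 208 and 221 CPM (log2 fold change -1.26 ± 0.070, adjusted p = 5.5e-14). GALNT5, which starts mucin-type O-glycans, fell from 640.0, 649 and 648 to 351, 289.8 and 310.3 CPM (log2 fold change -1.04 ± 0.055, adjusted p = 2.1e-14). VSNL1, a neuronal calcium sensor gene, fell by 1.09 on the log2 scale, from a mean of 29.8 to 14.1 CPM. The hair-type genes KRTAP3-1 and KRTAP2-3 fell from means of 39.7 and 28.8 CPM to 12.4 and 13.4 CPM (log2 fold changes -1.69 and -1.11), where KRTAP2-3 shares reads with the near-identical KRTAP2-4. By comparison, the 153 HCT116-specific genes stood at a median of 103.9% ± 1.84 (SD, n = 3) of their HCT116 level.

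**Figure D2:**
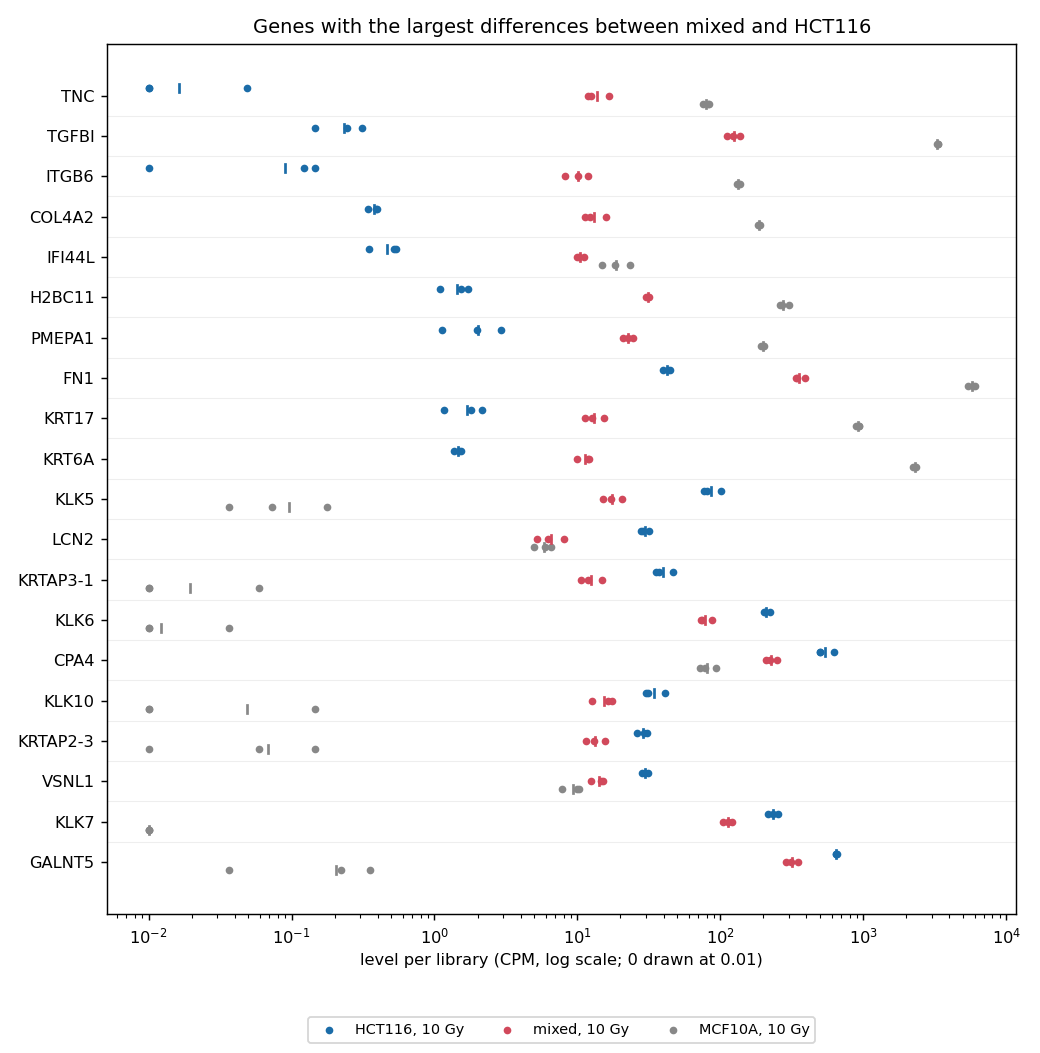
Level in each library (points; CPM, log scale, 0 drawn at 0.01) and mean (bars) of the 10 genes of at least 10 CPM most raised and the 10 most lowered in the irradiated mixture, with irradiated HCT116 in blue, the mixture in red and irradiated MCF10A in grey. In the upper 10 genes, from TNC to KRT6A, the mixture lies between a low HCT116 level and a high MCF10A level, and in the lower 10, from KLK5 to GALNT5, its mean lies below HCT116 and above MCF10A.

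Most of the largest increases were in genes with more transcript in MCF10A. Of the 164 genes at least 2-fold higher, 143 had a higher mean in irradiated MCF10A than in irradiated HCT116, 119 of them by at least 10-fold. Over all 871 genes called higher the share was lower, with 492 of them (56.5%). Of the 44 genes at least 2-fold lower, 41 had a lower mean in MCF10A, as had 472 of all 596 called lower (79.2%). The same shares among all genes tested were not counted, so that none of these can be read as an excess. Genes near the floor in HCT116 could also pass the filter on low counts through the mixture alone, which fixed their direction. With a 10 CPM filter, 14 genes were at least 2-fold higher and 10 at least 2-fold lower. The 143 MCF10A-specific genes were chosen for low levels in HCT116, and the 101 that passed the filter on low counts could do so through the mixture alone, so that no split or median over them is given. The 2 genes of this set called lower, named here after their values were seen, were CAVIN2, a component of caveolae (5.18, 4.55 and 5.94 CPM in HCT116, 1.02, 2.06 and 1.38 CPM in the mixture, 48.5 ± 1.38 CPM in MCF10A, all irradiated; log2 fold change -1.81), and XDH, the gene of xanthine oxidoreductase (7.98, 7.17 and 8.04, 4.99, 4.62 and 4.83 and 193 ± 0.985 CPM in the same order; log2 fold change -0.69). Both were under 1 CPM in non-irradiated HCT116, at 0.280 and 0.474 CPM. Of the 153 HCT116-specific genes, all of them tested, 22 were higher and 19 lower (5.08% and 3.48% of all genes).

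Of the 24 basal mammary markers, 14 were higher in the irradiated mixture and 3 lower, with a median log2 fold change of 0.79 (8.56% of all genes tested were called). Markers near the floor in HCT116, such as TP63, could pass the filter on low counts through the mixture alone. The count and the median thus lean upward. TP63, the master transcription factor of basal epithelium, was at 0, 0.0979 and 0 CPM in HCT116 and 2.38, 1.55 and 1.99 CPM in the mixture (adjusted p = 4.1e-07), against 131 ± 1.41 CPM in irradiated MCF10A. DSG3, a desmosomal cadherin, rose from 0.305, 0.637 and 0.311 to 5.16, 4.70 and 4.64 CPM (log2 fold change 3.45 ± 0.29, adjusted p = 5.4e-10). The summed level of the 24 markers was 3227 to 3568 CPM in HCT116, 3698 to 4082 CPM in the mixture and 27802 to 28325 CPM in MCF10A. The 3 markers that fell, CAV1 and CAV2, the genes of caveolins, and SERPINB5, or maspin, are expressed by HCT116 too: CAV1 went from 401, 370.0 and 347 to 295, 298 and 286 CPM (log2 fold change -0.36 ± 0.053, adjusted p = 2.5e-05). Of the 24 intestinal markers 13 were tested, 7 were lower and 1, MYB, higher (3.48% and 5.08% of all genes), with a median log2 fold change of -0.41. The lower count was 4 without HCT116 replicate 2 and with all 18 libraries in the fit, and MYB was not called without any 1 library other than HCT116 replicate 3. KRT8, KRT18 and KRT19, the keratins of simple epithelium, were the most abundant of these. KRT8 fell from 4959, 4428 and 4887 to 3107, 2947 and 2861 CPM (log2 fold change -0.69 ± 0.043, adjusted p = 7.4e-13). KRT18 fell from 1397, 1209 and 1314 to 902, 805 and 814 CPM (log2 fold change -0.65 ± 0.052, adjusted p = 1.6e-10). KRT19 fell from 1663, 1424 and 1561 to 1228, 1134 and 1169 CPM (log2 fold change -0.41 ± 0.049, adjusted p = 7e-07). The intestinal transcription factor CDX2 had means of 12.6 and 12.8 CPM and did not pass the test. The epithelial adhesion gene EPCAM fell from 293, 308 and 301 to 260.2, 274 and 262 CPM (log2 fold change -0.19 ± 0.049, adjusted p = 0.011), a call lost without HCT116 replicate 2 or mixed replicate 3 (adjusted p up to 0.18 over all alternatives). Markers of other cells were low. Of 10 fibroblast markers, 7 were tested and 4 called higher (5.08% of all genes), POSTN, DCN, LUM and FAP. POSTN, DCN and LUM had no count in irradiated HCT116, and FAP had 10. These 4 could pass the filter on low counts through the mixture alone, which fixed their direction. The fibroblast markers summed to 29.8 to 33.3 CPM in HCT116, 41.3 to 51.4 CPM in the mixture and 357 to 372 CPM in MCF10A. Of 10 immune markers, 3 were tested and none called. COL1A2 and PDGFRA had no count in the 6 libraries compared, COL1A1, the bulk of the fibroblast sum, was not called, and PTPRC, the common leukocyte antigen, had 10 counts in irradiated HCT116 and 5 in the mixture. The immune markers summed to 4.33 to 6.57 CPM in HCT116 and 4.31 to 5.45 CPM in the mixture. The part of such cells in the results was not tested.

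Many genes of the matrix were higher in the mixture. Of 36 collagens and matricellular genes, 32 were tested, 19 were higher and 1 lower (5.08% and 3.48% of all genes tested), with a median log2 fold change of 0.55. Members near the floor in HCT116, such as POSTN and TNC, could pass the filter on low counts through the mixture alone. The count and the median thus lean upward. The summed level of the list was 1195 to 1316 CPM in the HCT116 libraries, 1941 to 2126 CPM in the mixture and 14432 to 15152 CPM in irradiated MCF10A. COL4A1, the partner chain of COL4A2, went from 0.122, 0.392 and 0.622 to 12.7, 7.14 and 8.67 CPM (log2 fold change 4.68 ± 0.30, adjusted p = 9.8e-13). FBN1, the gene of fibrillin 1, went from 1.19, 1.52 and 1.32 to 11.8, 9.81 and 7.54 CPM (log2 fold change 2.83 ± 0.20, adjusted p = 8.5e-12). THBS1, the matricellular protein thrombospondin 1, rose from 47.3, 45.2 and 48.5 to 104, 97.7 and 89.5 CPM (log2 fold change 1.04 ± 0.065, adjusted p = 8.2e-13). COL17A1, the hemidesmosomal collagen of basal cells, went from 26.3, 22.3 and 27.2 to 54.8, 47.8 and 45.6 CPM (log2 fold change 0.96 ± 0.086, adjusted p = 2e-09). In each of these 4 genes every mixed library lay above every HCT116 library. POSTN, the gene of periostin, was without a count in HCT116 and at 4.08, 2.49 and 3.37 CPM in the mixture, at least 109-fold higher against a floor of 3 counts over the group, or 54.5-fold if counts of read mates are halved. Unlike the genes before it, POSTN was lower in irradiated MCF10A (0.566 ± 0.359 CPM) than in the mixture (adjusted p = 1.1e-05). COL5A1 was the one lower member, at 6.31, 4.97 and 5.83 CPM in HCT116 and 4.28, 3.31 and 3.59 CPM in the mixture (log2 fold change -0.62 ± 0.18, adjusted p = 0.026), a call lost when any of 4 single libraries was left out (adjusted p up to 0.35 over all alternatives).

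Of 21 integrins and laminins, 10 were higher and none lower (5.08% and 3.48% of all genes), with a median log2 fold change of 0.20. Without HCT116 replicate 2, 7 were called. ITGB6 and ITGB3, near the floor in HCT116, could pass the filter on low counts through the mixture alone. Laminin chains LAMB3 and LAMA3, which anchor basal cells on their basement membrane, were among them. LAMB3 rose from 65.5, 50.9 and 60.2 to 135, 116 and 113 CPM (log2 fold change 1.04 ± 0.077, adjusted p = 2.7e-11). LAMA3 rose from 76.9, 71.8 and 74.6 to 134, 117 and 129 CPM (log2 fold change 0.76 ± 0.060, adjusted p = 1.3e-10). Their levels in irradiated MCF10A were 3659.9 ± 37.7 and 4639 ± 170.0 CPM. ITGB3, the beta subunit of the vitronectin receptor, rose from 0.183, 0.416 and 0.311 to 3.12, 1.87 and 2.84 CPM (log2 fold change 3.06 ± 0.39, adjusted p = 1.9e-06), and the main epithelial beta subunit ITGB1 was not called (log2 fold change -0.09). Among 13 tested genes of cadherins, vimentin and factors of epithelial-mesenchymal transition, CDH2, VIM, FN1 and SNAI2 rose, and CDH1, CDH3 and EPCAM fell (5.08% and 3.48% of all genes). CDH2 and VIM, near the floor in HCT116, could likewise pass the filter through the mixture alone. CDH2, the gene of N-cadherin, had 3 counts in irradiated HCT116 and 4.25, 3.53 and 2.62 CPM in the mixture, a ratio of 115 with an exact 95% interval of 38.9 to 559 (adjusted p = 1.6e-10). VIM, the intermediate filament of mesenchymal cells, rose from 0.305, 0.196 and 0.272 to 5.87, 3.69 and 3.86 CPM (log2 fold change 4.11 ± 0.33, adjusted p = 1.9e-10), against 459 ± 14.9 CPM in irradiated MCF10A. CDH1, the gene of E-cadherin, fell from 222, 213 and 213 to 192, 173 and 165 CPM (log2 fold change -0.30 ± 0.057, adjusted p = 0.00073), and MCF10A had 123 ± 6.53 CPM. The calls of CDH3 and EPCAM were lost without HCT116 replicate 2, among other settings, which, like leaving out mixed replicate 3, left 1 of the 3 lower calls of the list (adjusted p of CDH3 up to 0.23).

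**Figure D3:**
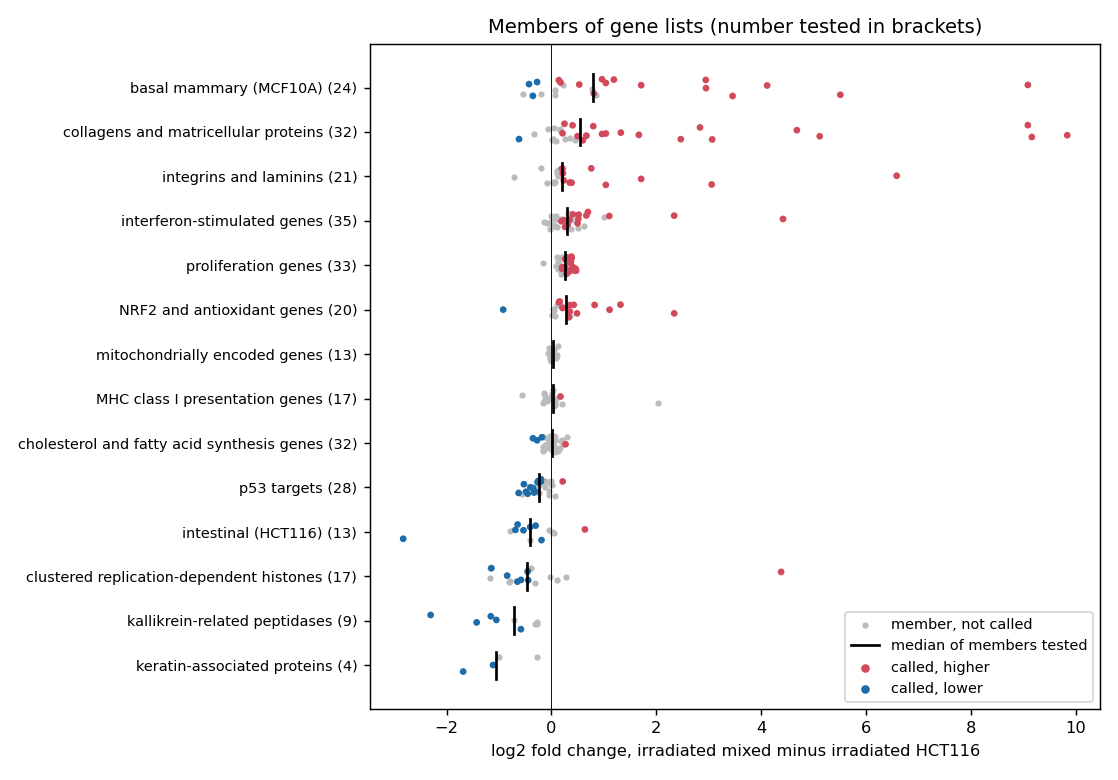
Log2 fold change of each tested member (points) and its median (black bar) for 14 gene lists, irradiated mixture minus irradiated HCT116, with called members in red (higher) and blue (lower). The medians run from 0.79 in basal mammary markers and 0.55 in matrix genes through 0.03 in mitochondrially encoded genes to -0.24 in p53 targets, -0.71 in kallikreins and -1.06 in keratin-associated proteins. Some basal mammary, matrix and integrin members could pass the filter on low counts through the mixture alone.

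Interferon-stimulated genes were raised as a group, and in part above the levels of both monocultures. Of 36 listed genes 35 were tested, 14 were higher and none lower (40.0% of those tested, against 5.08% of all genes called higher), with a median log2 fold change of 0.29. OAS2, an enzyme that makes the activator of RNase L, went from 0.518, 0.441 and 0.777 to 2.64, 3.05 and 3.01 CPM (log2 fold change 2.34 ± 0.32, adjusted p = 7.7e-06). IFI6, a mitochondrial and endoplasmic reticulum protein, went from 22.5, 24.3 and 22.1 to 36.3, 38.1 and 38.3 CPM (log2 fold change 0.70 ± 0.081, adjusted p = 4e-07). IFIT1, which binds viral RNA without a proper cap, rose from 39.1, 42.9 and 39.5 to 63.4, 66.5 and 64.2 CPM (log2 fold change 0.66 ± 0.067, adjusted p = 2.4e-08). In all 3 genes every mixed library exceeded every HCT116 library. Irradiated MCF10A had 6.40 ± 0.654 CPM of IFI6 and 6.14 ± 1.81 CPM of IFIT1, below every HCT116 and mixed library. OAS3 rose from 113, 121 and 117 to 154, 175 and 174 CPM (log2 fold change 0.51 ± 0.057, adjusted p = 1.7e-07). OASL rose from 28.7, 32.1 and 30.6 to 41.7, 39.3 and 41.4 CPM (log2 fold change 0.41 ± 0.077, adjusted p = 0.00055). IFIT3 rose from 18.8, 17.9 and 16.2 to 24.7, 23.4 and 27.4 CPM (log2 fold change 0.50 ± 0.097, adjusted p = 0.00086). The 7 other called members, SAMD9L, IFI44, IFIH1, HERC5, DDX60, SAMD9 and ISG15, had log2 fold changes from 1.10 (SAMD9L) down to 0.19 (ISG15). Each of these 7 lost its call when at least 1 library was left out (adjusted p up to 0.27 for ISG15), and 9 members were called without HCT116 replicate 1 and 8 without mixed replicate 2. Members with no call included OAS1 (log2 fold change -0.09), MX1 (0.61), IFI27 (0.29) and BST2 (0.04). Of the 14, 9 were higher in the mixture than in both irradiated monocultures: IFI6, IFIT1, OAS3, IFIT3, OASL, IFIH1, HERC5, DDX60 and ISG15.

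The promoters of 3 of these genes are shown since they carry the interferon-response type of motif, GAAANNGAAA on either strand, set in capitals in the 250 bases before the RefSeq start, read along the gene.
IFI44L promoter, GRCh38.p14 chr1:78620198-78620447, plus strand: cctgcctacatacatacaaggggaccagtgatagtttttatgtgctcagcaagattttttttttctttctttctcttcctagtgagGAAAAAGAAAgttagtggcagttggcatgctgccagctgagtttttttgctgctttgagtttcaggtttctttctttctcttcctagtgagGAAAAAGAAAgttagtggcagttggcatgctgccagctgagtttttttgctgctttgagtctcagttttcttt
IFI6 promoter, GRCh38.p14 chr1:27672193-27672442, minus strand: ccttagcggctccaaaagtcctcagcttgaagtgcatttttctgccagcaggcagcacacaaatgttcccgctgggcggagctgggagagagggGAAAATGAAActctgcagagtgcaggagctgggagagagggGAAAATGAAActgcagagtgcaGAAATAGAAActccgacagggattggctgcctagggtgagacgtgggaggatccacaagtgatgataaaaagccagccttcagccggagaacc
IFIT1 promoter, GRCh38.p14 chr10:89392373-89392622, plus strand: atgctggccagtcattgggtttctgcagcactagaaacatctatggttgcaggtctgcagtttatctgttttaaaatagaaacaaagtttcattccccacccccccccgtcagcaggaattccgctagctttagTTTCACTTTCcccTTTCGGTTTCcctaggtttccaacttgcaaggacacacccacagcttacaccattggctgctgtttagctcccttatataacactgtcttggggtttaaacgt
The motif occurs 2 times in the window of IFI44L, 3 times in that of IFI6 and 2 times, on the opposite strand, in that of IFIT1. Over windows of 300 bases around the start (GRCh38.p14), 996 of 27305 promoters in the table held it (3.65%). Promoters were found for 29 members of the interferon list, and 21 of them held the motif (72.4%). It was present in 11 of 12 promoters of members called higher and in 10 of 17 promoters of the other members. A match describes the letters and not a bound site.

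The difference in interferon-stimulated genes changed with irradiation. Without irradiation none of 33 tested members was higher in the mixture and 4 were lower (0.887% and 1.15% of all genes), with a median log2 fold change of -0.24. For IFI6 the non-irradiated means were 14.1 CPM in HCT116 and 8.62 CPM in the mixture (log2 fold change -0.70, adjusted p = 0.0077), the opposite direction to the irradiated pair. For OAS1 they were 3.32 and 1.02 CPM (log2 fold change -1.68, adjusted p = 0.0012), against 9.75 and 9.20 CPM with irradiation. Tested directly, the difference with irradiation minus the difference without it passed the threshold in 10 members, all upward, against 0.681% of the 18072 genes of that test. They were IFI44L, OAS2, OAS1, IFI44, MX1, IFI6, IFI27, OASL, IFIT1 and OAS3, of which OAS2, IFI44, MX1, IFI27 and OASL lost this call when at least 1 library was left out. The value was 3.53 ± 0.49 for IFI44L (adjusted p = 0.0002), 1.39 ± 0.15 for IFI6 (3.2e-06) and 0.91 ± 0.14 for IFIT1 (0.00063). Leaving out single libraries gave 6 to 12 members, with 6 without HCT116 non-irradiated replicate 1, mixed irradiated replicate 2 or mixed non-irradiated replicate 1. Among 22 tested sensors and regulators of the interferon pathway 4 were higher and 1 lower (5.08% and 3.48% of all genes). IRF7, an inducer of interferon genes, rose from 6.85, 6.76 and 6.37 to 9.95, 10.1 and 9.19 CPM (log2 fold change 0.54 ± 0.13, adjusted p = 0.0085), and DHX58 was called higher, with means of 1.23 and 2.45 CPM. EIF2AK2, the double-stranded RNA kinase PKR, rose from 223, 237 and 226 to 243, 281 and 281 CPM (log2 fold change 0.22 ± 0.055, adjusted p = 0.0098). The calls of EIF2AK2 and DHX58 were lost without any of 3 and 4 single libraries, respectively (adjusted p up to 0.097 and 0.12). TLR3 fell from 28.9, 27.6 and 31.4 to 22, 24.3 and 24.7 CPM (log2 fold change -0.31 ± 0.087, adjusted p = 0.02), a call likewise lost without any of 3 libraries (adjusted p up to 0.11 over all alternatives). The DNA sensor CGAS did not pass the filter on low counts. Of 17 genes of antigen presentation on MHC class I only CALR was called (8.56% of all genes), and it lost its call without any of 4 single libraries (adjusted p up to 0.18).

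**Figure D4:**
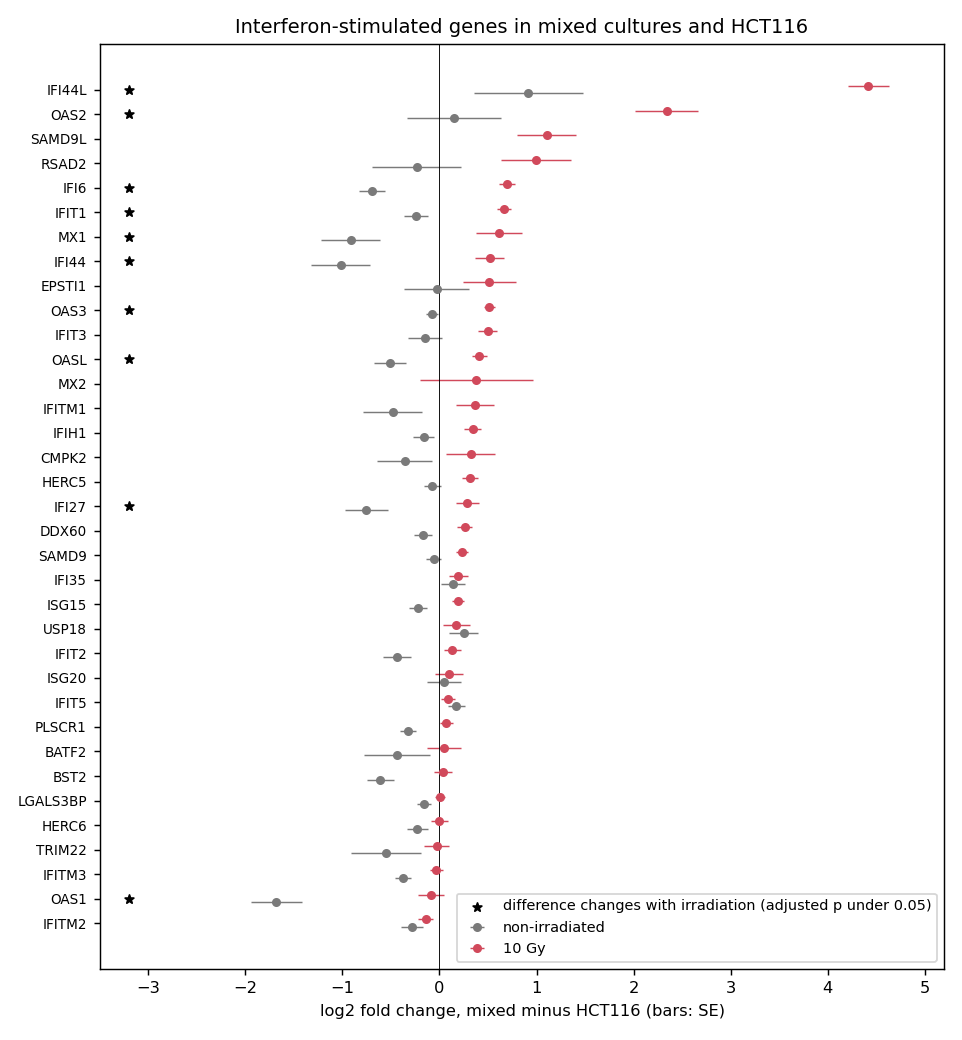
Log2 fold change of the mixture minus HCT116 with its standard error for the 35 interferon-stimulated genes tested, with 10 Gy in red and without irradiation in grey (2 members not tested there have no grey point); stars mark members whose difference changed with irradiation at an adjusted p under 0.05. IFI44L lies at 4.42 with and 0.92 without irradiation, OAS1 at -0.09 and -1.68, and no starred gene had a lower difference with irradiation than without.

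Targets of p53 were lower in the irradiated mixture. Of 29 listed genes 28 were tested, 13 were lower (3.48% of all genes tested were called lower) and 1 higher, with a median log2 fold change of -0.24. CDKN1A stood at 1688, 1585 and 1508 CPM in irradiated HCT116 and at 1251, 1096 and 1089.6 CPM in the mixture (log2 fold change -0.49 ± 0.052, adjusted p = 7e-08), with no overlap. BTG2, an antiproliferative gene, fell from 156, 146 and 142 to 104, 95.6 and 89.6 CPM (log2 fold change -0.63 ± 0.061, adjusted p = 1.2e-08). TP53I3, a quinone oxidoreductase, fell from 89.9, 81.6 and 90.8 to 67.4, 52.8 and 63.1 CPM (log2 fold change -0.53 ± 0.072, adjusted p = 6.9e-06). The death receptor FAS fell from 78.8, 89 and 87.5 to 62.5, 60.7 and 64.4 CPM (log2 fold change -0.45 ± 0.062, adjusted p = 5.9e-06). GDF15, a secreted stress hormone, fell from 503, 410.1 and 445 to 381, 317 and 335 CPM (log2 fold change -0.40 ± 0.064, adjusted p = 6.3e-05). MDM2, the ubiquitin ligase that degrades p53, was the exception, at 655, 747 and 719.7 CPM in HCT116 and 746, 873 and 858 CPM in the mixture, where the highest HCT116 library lay above the lowest mixed library (log2 fold change 0.21 ± 0.054, adjusted p = 0.0096). Its call was lost without HCT116 replicate 1, mixed replicate 2 or mixed replicate 3 (adjusted p up to 0.1). Irradiated MCF10A had lower means than irradiated HCT116 in CDKN1A (590.4 ± 26.6 CPM), BTG2 (49.3 ± 1.64 CPM) and GDF15 (41.3 ± 5.95 CPM). FAS and TP53I3, at 83.8 ± 3.24 and 72.9 ± 2.87 CPM in MCF10A, were lower in the mixture than in both monocultures. Without irradiation 4 members were lower and 1 higher among 27 tested (1.15% and 0.887% of all genes). The change of the difference with irradiation was called for FAS (-0.61 ± 0.11) and TRIAP1 (-0.51 ± 0.10). Over all 18072 genes of that test, 0.149% were called downward. For CDKN1A that change did not pass (-0.13 ± 0.11, adjusted p = 0.69).

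Genes of cell division were higher in the irradiated mixture by small amounts. Of 33 proliferation genes 20 were higher and none lower (5.08% and 3.48% of all genes), with a median log2 fold change of 0.26; 11 were called without mixed replicate 2. KIF20A, a kinesin of cytokinesis, went from 32.6, 37.4 and 34.4 to 41.9, 56.2 and 47.7 CPM (log2 fold change 0.47 ± 0.087, adjusted p = 0.00045). CCNB2, a mitotic cyclin, went from 33.1, 32 and 36 to 41.7, 53.2 and 44.4 CPM (log2 fold change 0.46 ± 0.083, adjusted p = 0.0004). Its kinase CDK1 rose from 118, 122 and 132 to 140.5, 182 and 175 CPM (log2 fold change 0.41 ± 0.068, adjusted p = 0.00013). CENPE, a kinetochore motor, went from 39.8, 41.4 and 43.5 to 51.2, 63.1 and 57.9 CPM (log2 fold change 0.46 ± 0.074, adjusted p = 8.1e-05). TOP2A, the topoisomerase of dividing cells, rose from 167, 191 and 190.3 to 203, 252 and 236 CPM (log2 fold change 0.33 ± 0.064, adjusted p = 0.00087). In all 5 genes mixed replicate 1 was the lowest of the mixed libraries and still lay above HCT116. MKI67, the gene of the Ki-67 antigen, stood at 294, 305 and 308 and 325, 400.4 and 373 CPM (log2 fold change 0.27 ± 0.057, adjusted p = 0.0023), a call lost without mixed replicate 2 (adjusted p = 0.055). Among MCM2 to MCM7, the helicase subunits of DNA replication, only MCM3 was called, with an adjusted p up to 0.24 over all alternatives, and PCNA was not (log2 fold change -0.16). Without irradiation MKI67 stood at 1087 ± 69.8 CPM in HCT116 and 1269.6 ± 40.8 CPM in the mixture, 2 members of the list were higher there (0.887% of all genes), and in no member did the difference change with irradiation at the threshold. Of 51 clustered histone genes 17 were tested, 6 were lower (3.48% of all genes) and H2BC11 alone higher (5.08%), with a median log2 fold change of -0.47. H2BC21 fell from 7.98, 6.07 and 6.92 to 4.25, 2.35 and 2.93 CPM (log2 fold change -1.15 ± 0.19, adjusted p = 0.00016). H2BC5 fell from 21, 18.3 and 22.5 to 14.9, 12 and 12.6 CPM (log2 fold change -0.65 ± 0.11, adjusted p = 0.00016). H3C10 fell from a mean of 4.13 to 2.30 CPM, a call lost with all 18 libraries in the fit (adjusted p = 0.11). Most transcripts of such genes lack a poly(A) tail, and copies share sequence, so that these low counts are uncertain.

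The remaining epithelial genes went in both directions. All 5 called kallikreins fell, out of 9 tested of 15 (median log2 fold change -0.71), against 3.48% of all genes called lower. The fifth was KLK8, at 24.1, 18 and 19.4 CPM in HCT116 and 13.1, 12.3 and 15.9 CPM in the mixture (log2 fold change -0.58 ± 0.12, adjusted p = 0.0012). The same number of kallikreins was lower without irradiation (1.15% of all genes). The differences of KLK5 were -2.31 with and -2.57 without irradiation, and its mean level in HCT116 was 3.55 CPM without and 86.2 CPM with irradiation. In no kallikrein did the difference change with irradiation at the threshold. Among 9 tested genes of the cornified envelope only ABCA12, a lipid transporter, and PPL, the gene of periplakin, were called, both lower (3.48% of all genes). Of 10 simple-epithelium and hair-type keratins, KRT7, KRT81 and KRT80 rose and, as above, KRT8, KRT18 and KRT19 fell (5.08% and 3.48% of all genes). KRT7, a keratin of glandular ducts, went from 3.72, 4.63 and 5.44 to 21.7, 18.2 and 19.2 CPM (log2 fold change 2.10 ± 0.13, adjusted p = 1.2e-12), against 1908 ± 47 CPM in irradiated MCF10A. KRT81, a hair keratin that shares sequence with KRT86, went from 6.70, 7.10 and 8.31 to 32.5, 22.4 and 26.5 CPM (log2 fold change 1.88 ± 0.13, adjusted p = 3.3e-12), against 2379 ± 16.7 CPM in MCF10A. S100A2 rose from 16.6, 16.2 and 16.5 to 30.8, 28.2 and 27.9 CPM (log2 fold change 0.81 ± 0.092, adjusted p = 2.3e-07), and S100A14 fell from 212, 227 and 221 to 161, 156 and 165 CPM (log2 fold change -0.46 ± 0.052, adjusted p = 1.5e-07).

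A weighted mean of 2 monocultures lies between them, so genes called in the same direction against both irradiated HCT116 and irradiated MCF10A were counted. There were 568 of 16340 genes tested in both (3.48%), 360 higher (2.2%) and 208 lower (1.27%). The 2 comparisons were scaled separately. Against MCF10A the scaling factors were 1.065 to 1.097 for the mixture and 0.918 to 0.927 for MCF10A, so that fold changes lay below those in CPM. A gene between the monocultures in CPM can thus count as lower than both, and such genes were not counted. Without mixed replicate 2 these were 215 and 97, and without mixed replicate 3 they were 223 and 102. Only 25 of the 164 genes at least 2-fold higher and 3 of the 44 genes at least 2-fold lower were among them, so that most differences outside both monocultures were small. Among those without overlap whose higher group reached 10 CPM, the largest increase was in CYP24A1, the mitochondrial enzyme that inactivates vitamin D, at 453, 444 and 462 CPM in HCT116, 1021, 957 and 957 CPM in the mixture and 2.79 ± 0.649 CPM in MCF10A, all irradiated (log2 fold change 1.10 ± 0.046, adjusted p = 6.8e-17 against HCT116). It was also higher in the mixture without irradiation (means 194 and 379.8 CPM, log2 fold change 0.99, adjusted p = 1.2e-05). MSX2, a homeobox target of BMP signalling, went from 17.2, 16.7 and 14.8 to 31.8, 35 and 35.6 CPM (log2 fold change 1.06 ± 0.092, adjusted p = 8.6e-10). Irradiated MCF10A had 4.61 ± 0.872 CPM of it, below every library of either group. OLFML2A, a matrix-binding olfactomedin, rose from 13.6, 13.2 and 13.1 to 27.5, 26.2 and 24.3 CPM (log2 fold change 0.96 ± 0.097, adjusted p = 2.8e-08). SYNM, an intermediate filament protein, rose from 6.58, 5.44 and 5.36 to 8.81, 12.4 and 12.6 CPM (log2 fold change 0.95 ± 0.15, adjusted p = 4.9e-05). MRC2, an endocytic collagen receptor, rose from 11.2, 9.87 and 8.86 to 21.8, 17.1 and 17.6 CPM (log2 fold change 0.90 ± 0.12, adjusted p = 4.5e-06).

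Among the genes called lower against both monocultures, ABCA12 stood at 48.2, 39.8 and 46.6 CPM in HCT116, 23.1, 21.7 and 23.8 CPM in the mixture and 162 ± 8.73 CPM in MCF10A (log2 fold change -0.98 ± 0.084, adjusted p = 6.9e-10). SFN, the gene of 14-3-3 sigma and itself a p53 target, fell from 684, 610.4 and 592 to 442, 350.0 and 369.9 CPM (log2 fold change -0.71 ± 0.065, adjusted p = 3.6e-09), with 539 ± 18.7 CPM in MCF10A. NRP1, a co-receptor of VEGF and semaphorins, fell from 25.6, 22.1 and 26.4 to 17.9, 12.7 and 13.4 CPM (log2 fold change -0.76 ± 0.11, adjusted p = 3.1e-05). The tetraspanin CD82 fell from 49.8, 42.2 and 42.6 to 33.8, 22 and 25.5 CPM (log2 fold change -0.74 ± 0.11, adjusted p = 1.4e-05). In these 4 genes both monocultures lay above all 3 mixed libraries. VSIR, a B7-family immune checkpoint, fell by 0.68 on the log2 scale, and CLCF1, a cytokine of the IL-6 family, by 0.70, the latter call being lost without mixed replicate 3 (adjusted p = 0.078).

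**Figure D5:**
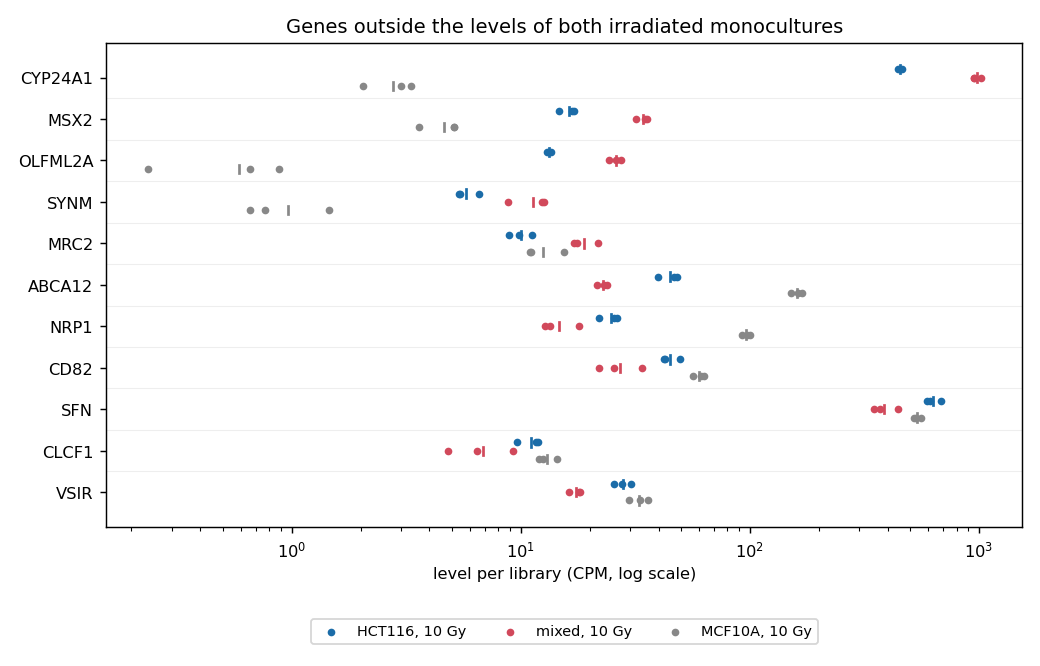
Level in each library (points, in CPM on a log scale) and mean (bars) of 5 genes with the largest increases and 6 with the largest decreases. They were taken from genes of at least 10 CPM called in the same direction against both irradiated monocultures. CYP24A1 reaches 978 CPM on average in the mixture (red) against 453 CPM in HCT116 (blue) and 2.79 CPM in MCF10A (grey), and SFN lies at 387 CPM in the mixture, below 629 and 539 CPM.

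Genes of the antioxidant factor NRF2 were mostly higher. Of 20 tested, 12 were higher and 1 lower (5.08% and 3.48% of all genes), with a median log2 fold change of 0.27. Leaving out single libraries gave 7 to 9 higher, with 7 without mixed replicate 2. SLC7A11, the cystine importer, rose from 22.1, 24.5 and 26.5 to 46, 53.1 and 59.1 CPM (log2 fold change 1.11 ± 0.087, adjusted p = 9.6e-11). NQO1, a quinone reductase, rose from 228, 219 and 245 to 299.6, 313 and 322 CPM (log2 fold change 0.42 ± 0.051, adjusted p = 6.8e-07). AKR1C1 and AKR1C2, near-identical aldo-keto reductases whose counts are uncertain, had means of 1.05 and 0.368 CPM in HCT116, 2.68 and 1.83 CPM in the mixture and 245 and 104 CPM in MCF10A. Their relative AKR1B10 fell from 5.64, 4.92 and 6.53 to 3.85, 2.86 and 2.32 CPM (log2 fold change -0.92 ± 0.20, adjusted p = 0.0027). Among 27 tested of 36 interleukins, chemokines and other secreted factors, 4 were higher and 3 lower (5.08% and 3.48% of all genes). IL1A, an inflammatory cytokine, rose from 1.04, 1.76 and 1.44 to 4.76, 5.91 and 5.77 CPM (log2 fold change 1.93 ± 0.22, adjusted p = 3.6e-07), against 817 ± 5.93 CPM in MCF10A. IGFBP3, an IGF-binding protein, rose from 10.3, 8.47 and 11.5 to 25.6, 12.2 and 16.7 CPM (log2 fold change 0.85 ± 0.17, adjusted p = 0.0011), a call lost in DESeq2 (adjusted p = 0.094). IL18, another cytokine, fell from 130.1, 130.1 and 120.5 to 103, 97.8 and 105 CPM (log2 fold change -0.33 ± 0.057, adjusted p = 0.00017). The chemokine CXCL8 was not called (log2 fold change -0.01), and IL6 did not pass the filter on low counts. Of 18 genes of NF-kappaB signalling 4 were called higher, TNFAIP2, BIRC3, BIRC2 and NFKB2 (5.08% of all genes). The count was 2 without HCT116 replicate 2 or 3 or mixed replicate 1 and 1 without mixed replicate 3.

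In 7 lists, of cholesterol, hypoxia, ATF4, glucocorticoid, cAMP, ERK and Wnt genes, 11.8% to 25% of the tested members were called, against 8.56% of all genes tested. The share was 27.3% among the EGF receptor family and its ligands and 21.4% among Notch pathway genes. Of 32 genes of cholesterol and fatty acid synthesis 1 was higher and 3 lower (median 0.01), of 34 hypoxia and glycolysis genes 3 were higher and 1 lower (0.03), and of 20 ATF4 and stress genes 4 were higher (0.12). Several of these small counts moved with single libraries. The 3 lower cholesterol genes became 1 without HCT116 replicate 2 or mixed replicate 2 or 3, and the 1 higher became 2 without HCT116 replicate 1. The 3 higher hypoxia genes became 1 without HCT116 replicate 2 or 3 or mixed replicate 1, and the 1 lower became 5 without mixed replicate 1 and 0 without any other library but HCT116 replicate 2. The 4 higher ATF4 genes became 2, and 1 was lower, without HCT116 replicate 2 or mixed replicate 1. MCF10A medium holds hydrocortisone and cholera toxin, which act on glucocorticoid and cAMP targets. Of 15 glucocorticoid-responsive genes SCNN1A and MT2A were lower, both calls lost without HCT116 replicate 1, mixed replicate 2 or mixed replicate 3 (adjusted p up to 0.18 and 0.32). FKBP5, a chaperone induced by glucocorticoids, was higher (86.9, 91.6 and 98.3 CPM in HCT116 and 108, 129 and 123 CPM in the mixture; log2 fold change 0.37 ± 0.063, adjusted p = 0.00016), whereas TSC22D3 and PER1 were not called (log2 fold changes 0.40 and 0.19). Of 16 cAMP-responsive and PDE4 genes, the phosphodiesterases PDE4D and PDE4B were higher and AREG and NR4A2 lower. PDE4B went from 47.4, 52.1 and 50.2 to 74.9, 84.6 and 80.3 CPM (log2 fold change 0.67 ± 0.065, adjusted p = 9.6e-09), above MCF10A as well (8.56 ± 0.657 CPM). AREG, an EGF receptor ligand, fell from 420.2, 441 and 411 to 339, 293 and 308 CPM (log2 fold change -0.45 ± 0.054, adjusted p = 6.4e-07). Both had the same direction without irradiation, with log2 fold changes of 0.65 and -0.64. Of 15 feedback genes of ERK signalling 5 were lower without irradiation (1.15% of all genes). With irradiation 1 was lower and 1 higher (3.48% and 5.08% of all genes). The lower count was 3 without HCT116 replicate 2 and 2 without mixed replicate 1, and the higher call was lost without either of these or without HCT116 replicate 3 or mixed replicate 2. DUSP5, a phosphatase of ERK, was the lower one, at 153, 132 and 130.2 CPM in HCT116 and 109, 90.1 and 99.5 CPM in the mixture (log2 fold change -0.49 ± 0.068, adjusted p = 8.3e-06). In the Wnt list CCND1, the gene of cyclin D1, fell from 1905, 1865 and 1812 to 1539, 1528 and 1529 CPM (log2 fold change -0.29 ± 0.040, adjusted p = 8e-06), whereas AXIN2 was not called (log2 fold change 0.04). None of the 13 mitochondrially encoded protein genes was called in edgeR (4 were higher without HCT116 replicate 1 and 1 without HCT116 replicate 2), and their share of counts was 9.51% to 10.2% in HCT116 and 10.0% to 10.5% in the mixture.

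The difference between mixture and HCT116 changed with irradiation in 150 of 18072 genes (0.83%), upward in 123 and downward in 27, so that 82.0% of these calls were upward (60.7% in DESeq2, with 181 and 117 genes). Leaving out single libraries gave upward counts from 48 (without mixed non-irradiated replicate 1) to 137 (without mixed non-irradiated replicate 2). The upward count fell below 80 without any 1 of the 6 irradiated libraries, HCT116 non-irradiated replicates 1 and 2 or mixed non-irradiated replicate 1. The downward count ranged from 12 without mixed irradiated replicate 3 and 16 without HCT116 irradiated replicate 1 to 46 and 60 without mixed non-irradiated replicates 3 and 2. Among genes of at least 10 CPM, those of the matrix and of the interferon list led the upward changes. FN1 had means of 74.8 and 146 CPM in HCT116 and mixture without irradiation (log2 fold change 0.98) and 42.3 and 357 CPM with it, a change of 2.09 ± 0.14 (adjusted p = 1.2e-09). TNC changed by 4.59 ± 1.01 (adjusted p = 0.024), which rests on few counts in HCT116 and was lost without any of 5 single libraries. AMIGO2, an adhesion protein, had 6.69 and 10.4 CPM without irradiation and 2.73 and 13.2 CPM with it (1.60 ± 0.21, adjusted p = 0.00015). In the downward direction, H2BC11 went from 0.317 and 39.3 CPM to 1.45 and 30.9 CPM (-2.66 ± 0.35, adjusted p = 0.00014), and ZBED2, a zinc finger repressor, from 8.78 and 24.5 CPM to 52 and 75.1 CPM (-0.98 ± 0.17, adjusted p = 0.0023). ABCA12 had means of 4.43 and 3.86 CPM without irradiation and changed by -0.81 ± 0.17 (adjusted p = 0.014, and 0.051 without mixed non-irradiated replicate 3). TAF3, a subunit of TFIID, changed by -0.69 ± 0.14 (adjusted p = 0.011); its lower level in the irradiated mixture was not called without mixed irradiated replicate 2.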

How the data were processed

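The deposited values are whole-number counts per gene symbol, 1 table per library, made by the authors. The submitters' processing notes name fastp, STAR, featureCounts and GRCh38, without versions; how mates, strand and shared reads were counted is not given in the sources used here. In the 6 irradiated libraries compared, 67.1% of the values from 1 to 10 were even, so that counts may hold both mates of a pair, and halved counts were tried as an alternative. Levels (CPM) are counts divided by the library total and scaled to 1e+06.

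Libraries were grouped by title. Differences were tested with edgeR 4.0.16 (R 4.3.3) by the 2-sided quasi-likelihood test with TMM scaling and filterByExpr, with Benjamini-Hochberg adjustment over all genes tested and a threshold of 0.05, on the 6 libraries compared or on 12 for the change with irradiation. Log2 fold changes are mixture minus HCT116, given ± SE, and levels ± are SD over 3 libraries. Alternatives were other scalings and filters, all 18 libraries, DESeq2 1.42.0, a replicate block and leaving out each library. Intervals and floors (3 counts) cover counting error only.

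Genes were named by rule: the 10 largest called differences in each direction with at least 10 CPM and no overlap, by the same limits the 6 largest outside both monocultures, the 5 largest changes with irradiation, CDKN1A, MDM2, GDF15, MKI67 and TOP2A, and up to 4 called members per list at 1 CPM or more, with others named to account for a list. Some genes that the rule names are not reported here. The comparison and the lists were chosen with earlier results of these data known. Promoters are RefSeq sequences on GRCh38.p14. Non-irradiated MCF10A was used to choose line-specific genes and in the fit of all 18 libraries.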

Additional observations from a re-analysis of the deposited data

Results flagged for a closer look

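For 34 genes named in the text, the difference between the mixture and HCT116 changed with irradiation at an adjusted p under 0.05 in edgeR's interaction test over 12 libraries. Over all 18072 genes of that test, 150 were called (0.83%). Some of the 34 were named because they passed this same test, so that their number is not a result about the named genes. The values are log2 differences with irradiation minus log2 differences without it. Among interferon-stimulated genes the changes were IFI44L (3.53), OAS2 (2.19), OAS1 (1.59), IFI44 (1.54), MX1 (1.53), IFI6 (1.39), IFI27 (1.04), OASL (0.92), IFIT1 (0.91) and OAS3 (0.59). Among genes of the matrix, adhesion and the cytoskeleton they were CDH2 (5.19), TNC (4.59), VIM (3.31), ITGB3 (3.09), FBN1 (2.38), FN1 (2.09), AMIGO2 (1.60), MRC2 (0.76), OLFML2A (0.67), LAMB3 (0.60) and THBS1 (0.51). The change of CDH2 rests on 3 counts in irradiated HCT116 and that of TNC on 2. The other upward changes were SLC7A11 (0.87), NQO1 (0.62) and MSX2 (0.56). The downward changes were CCND1 (-0.36), KRT8 (-0.38), TRIAP1 (-0.51), GALNT5 (-0.52), FAS (-0.61), TLR3 (-0.66), TAF3 (-0.69), ABCA12 (-0.81), ZBED2 (-0.98) and H2BC11 (-2.66). Of the 34 genes, 21 kept this call whichever single library was left out and 13 lost it at least once, namely TNC, OAS2, IFI44, MX1, IFI27, OASL, SLC7A11, MRC2, LAMB3, MSX2, THBS1, TLR3 and ABCA12. TLR3 had an adjusted p of 0.049, which exceeded 0.05 in 13 alternatives (up to 0.15), TNC reached 0.26 when HCT116 non-irradiated replicate 2 was left out, and ABCA12 reached 0.051 without mixed non-irradiated replicate 3.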

How the results depend on the processing

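Of 129 called genes named in the text, 99 kept their call and direction in every alternative in which they were tested, 30 lost the call somewhere and 0 reversed. The other scalings, the count filters, DESeq2 and halved counts left the 871 higher and 596 lower genes within 1.5 times. With all 18 libraries in the fit, 261 genes were lower, 252 at least 2-fold higher and 26 at least 2-fold lower, against 596, 164 and 44. With a 10 CPM filter, 14 and 10 genes were at least 2-fold higher and lower, and 93 were higher without irradiation, against 146; fewer genes are tested there. Without a filter, 308 were higher and 363 lower without irradiation, and 253 and 83 changed with irradiation upward and downward, against 123 and 27. DESeq2 gave 271 higher without irradiation and 117 downward changes with irradiation. The cause of these shifts was not tested.

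Leaving out 1 library at a time gave 567 to 800 higher and 299 to 537 lower genes, 148 to 187 at least 2-fold higher and 34 to 52 at least 2-fold lower. Without irradiation it gave 68 to 144 higher and 77 to 181 lower, for the change with irradiation 48 to 137 upward and 12 to 60 downward, and outside both monocultures 215 to 357 higher and 97 to 206 lower.

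Replicate numbers were not used as pairs, since the labels do not say that they mark a shared day or batch. Residuals of same-numbered libraries correlated weakly, at 0.0371 to 0.124, and those of differently numbered libraries at -0.0812 to 0.0439. Of 6 libraries, 4 correlated best with their own number. Whether the numbers mark a shared batch was not tested. A replicate block gave 1263 higher and 957 lower genes, 319 and 397 without irradiation, and 345 lower outside both monocultures. The share of MCF10A-specific transcripts (1.27%) was 1.00% for genes of at least 50 CPM, 1.08% for genes under 0.2 CPM in HCT116 and 1.59% as a ratio of summed CPM; for HCT116-specific genes (103.9%) the same settings gave 100.7%, 100.2% and 96.0%. Low depth limits genes under about 1 CPM, whose fold changes rest on few counts.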

Other observations

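The following genes were chosen after their values were seen. AMTN, the gene of the tooth and junctional epithelium protein amelotin, was without a count in irradiated HCT116 and stood at 3.20, 2.49 and 4.69 CPM in the irradiated mixture, at least 114-fold higher against a floor of 3 counts over the group, or 57.2-fold if mates were counted singly. Irradiated MCF10A had 0.462 CPM, and the adjusted p of the mixture was 1.2e-10 against HCT116 and 4.6e-07 against MCF10A. Without irradiation AMTN had 0 CPM in HCT116 and 1.72 CPM in the mixture. The enamel gene ENAM was called higher too, at 0.510, 0.748 and 0.442 CPM in the irradiated mixture against 6 counts in irradiated HCT116, a call lost without any of 3 single libraries (adjusted p up to 0.092), with 0.019 and 0.596 CPM in HCT116 and mixture without irradiation. MMP7, the epithelial matrix protease matrilysin, rose from 0.487, 0.833 and 0.544 to 1.87, 2.14 and 2.04 CPM, and irradiated MCF10A was under 0.25 CPM in every library. All 3 genes, like POSTN, stood above both irradiated monocultures at low levels. DCN, the gene of the small proteoglycan decorin, was also without a count in irradiated HCT116, but it lay at 240.2 CPM in irradiated MCF10A and at 2.15, 1.55 and 1.49 CPM in the mixture. AMTN, ENAM and DCN, near the floor in irradiated HCT116, could pass the filter on low counts through the mixture alone. That fixed their direction against HCT116.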
